A study of Mus musculus with 12 samples.

Results

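The transcription factor p53 and the proteins that set its amount and activity were followed as 10 genes in the neonatal mouse cortex: Trp53, which encodes p53, Dmtf1, Mdm2, Mdm4, Usp7, Sirt1, Cdkn2a, Trp53bp1, Hipk2 and Trp73. They were taken by symbol from the deposited count tables, where they made up 10 of 24452 gene symbols and 26 of 35840 RefSeq transcripts. A filter on low counts was passed by 9 of the 10 symbols and by 22 of the 26 transcripts, and by 14739 symbols and 21715 transcripts in all. RNA was sequenced from the whole somatosensory cortex of male C57BL/6 mice at postnatal day 7, collected 8 h after the second of a pair of intraperitoneal injections of ethanol or saline. The 4 groups of 3 libraries were wild-type (WT) mice given saline, WT mice given ethanol, p53 knockout (KO) mice given saline and KO mice given ethanol. The KO mice carried the Trp53tm1Tyj allele in every cell and came from matings of heterozygotes. The labels do not say that each library came from its own animal, so the p-values measure only the spread between these samples.

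p53 is a transcription factor that is made all the time and kept low by degradation, and it accumulates when DNA is damaged or a cell is stressed. Mdm2 attaches ubiquitin to p53 and is itself a p53 target gene, which closes a feedback loop, and Mdm4 blocks p53 on its target promoters. Dmtf1 is a DNA-binding protein that can switch on the Arf transcript of Cdkn2a, whose protein holds Mdm2 away from p53. In the newborn brain, ethanol is known to cause cell death within hours, and p53 has been studied as one of the proteins involved.

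Several of these genes produce a pair of transcripts that differ by a short coding stretch, and those stretches are shown first because the results per transcript refer to them. All are on GRCm38, which is the mm10 assembly of the files, and come from the GENCODE M21 transcripts that match the RefSeq names. Both Trp53 transcripts (chr11:69580359-69591873, plus strand) are identical up to the penultimate exon. NM_001127233 then starts its last exon 96 bases earlier and reaches a stop codon after 55 coding bases, at chr11:69591254-69591308, whereas NM_011640 reads on from chr11:69591350. In the pair of lines below, lower case marks the 40 shared coding bases and capitals mark the 55 that follow in each.
Trp53 NM_001127233: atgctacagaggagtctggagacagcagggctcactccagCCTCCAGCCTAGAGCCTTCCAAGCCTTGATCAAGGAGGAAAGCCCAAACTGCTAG
Trp53 NM_011640: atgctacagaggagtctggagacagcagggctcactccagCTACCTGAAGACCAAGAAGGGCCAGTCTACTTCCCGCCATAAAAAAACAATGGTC
Dmtf1 (chr5:9118868-9161776, minus strand) has NM_011806, of 18 exons, and NM_001110327, of 17 exons. They differ by 308 bases, of which 210 are a coding exon at chr5:9126540-9126749 found only in NM_011806. Capitals here mark that whole exon.
Dmtf1 NM_011806: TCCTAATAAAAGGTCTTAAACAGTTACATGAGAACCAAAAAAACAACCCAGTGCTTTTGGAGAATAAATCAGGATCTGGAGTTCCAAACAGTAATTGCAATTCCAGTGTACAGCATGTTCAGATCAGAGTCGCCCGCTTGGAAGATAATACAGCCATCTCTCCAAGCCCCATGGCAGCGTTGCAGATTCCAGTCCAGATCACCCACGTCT
Trp53bp1 (chr2:121194835-121271407, minus strand) has NM_013735 and NM_001290830, of 28 and 27 exons. A coding exon of 150 bases at chr2:121208355-121208504 is found only in NM_013735, and is given in capitals.
Trp53bp1 NM_013735: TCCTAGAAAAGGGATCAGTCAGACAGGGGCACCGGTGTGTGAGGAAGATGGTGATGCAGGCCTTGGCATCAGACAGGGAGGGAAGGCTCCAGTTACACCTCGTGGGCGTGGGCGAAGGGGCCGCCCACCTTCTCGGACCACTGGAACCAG

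The libraries differed in depth and in make-up. Totals ran from 719735 to 17066392 counts, so that 3 counts stood for 0.17 to 5.01 CPM (counts scaled to library size and by the trimmed mean of M-values, TMM). The names of 10 libraries open with P and those of 2 with L. The L libraries were WT saline replicate 3 and the shallowest of all, replicate 12 of KO ethanol. The study collected cortex by laser microdissection for part of its samples and by hole punch for the rest. The labels do not say which way each library was collected. Markers of cortical excitatory neurons were found in every group, with summed levels of 380 to 1332 CPM and none of the 7 at 0 in a whole group. All 4 hemoglobin genes were lower in WT ethanol and in KO saline than in WT saline, and their summed level was 328 to 1283 CPM in WT saline. It was 48.7 to 139 CPM with ethanol in WT, 35.6 to 93.2 with saline in KO and 28.8 to 745 with ethanol in KO, with the 745 in replicate 12. WT ethanol replicate 4 held 4953 CPM of the 3 choroid plexus markers, against 3.09 to 118 in WT saline, and 552 CPM of the 3 thalamus markers, against 27.1 to 94.99 in the other 11 libraries. The choroid plexus markers reached 2238 CPM in KO saline and 2201 in KO ethanol. The part of these differences in the results below was not tested, and fewer cells of a type cannot be told apart from less RNA per cell in bulk tissue.

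Trp53, the gene targeted in the KO mice, was counted in all 12 libraries, with 14 to 453 counts each. It stood at 3.67, 26.2 and 14.4 CPM in WT saline and at 14.8, 7.23 and 20.0 in WT ethanol. In KO saline it stood at 27.6, 11.1 and 11.7 CPM, and in KO ethanol at 28.1, 23.4 and 28.7. The 3 groups other than KO ethanol overlapped each other, and all 3 KO ethanol libraries lay above the highest WT ethanol library, as was so for 4.04% of all symbols. The allele removes an early part of the gene and the study's own reads still covered its later part, so a count over the whole transcript does not check the deletion. The Trp53 total passed the test in no comparison, with a log2 change of -0.04 (SE 0.60, adjusted p = 0.978) for ethanol in WT, 0.22 (SE 0.60, adjusted p = 0.860) for KO against WT in saline and 0.95 (SE 0.60, adjusted p = 0.982) for KO against WT in ethanol.

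What did differ at Trp53 was how its counts were divided between the transcripts printed above. NM_001127233 took 7.01%, 7.01% and 16.6% of the Trp53 counts in WT saline and 21.1%, 7.01% and 23.1% in WT ethanol. It took 68.5%, 70.6% and 65.7% in KO saline and 70.6%, 7.01% and 48.3% in KO ethanol. Thus 5 of 6 KO libraries lay above all 6 WT libraries, and the exception, KO ethanol replicate 12, had 14 Trp53 counts, of which 1 went to this transcript (95% Wilson interval 1.27 to 31.5%, counting error only). The mean share was 55.1% ± 25.0 (SD, n = 6) in KO and 13.6% ± 7.56 (SD, n = 6) in WT, a difference of 41.5 percentage points (two-sided exact permutation test, p = 0.013). Without KO ethanol replicate 12 the difference was 51.1 points (exact permutation p = 0.00216). That is the smallest p the test can give with these libraries, and the library left out was the exception to the pattern. In saline alone the difference was 58.0 points, where the smallest p that 3 against 3 libraries can give is 0.1 and the exact permutation p was 0.1. In ethanol alone it was 24.9 points (exact permutation p = 0.3).

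On the level of the transcripts, NM_001127233 stood at 0.265, 1.83 and 2.47 CPM in WT saline and at 18.8, 7.77 and 7.65 in KO saline, where every KO library lay above every WT library. Its log2 change was 2.85 (SE 0.97, adjusted p = 0.170), against a call level of an adjusted p under 0.30, which is the level the study worked at and a lenient one. NM_011640 stood at 3.51, 24.3 and 12.4 CPM in WT saline and at 8.67, 3.24 and 4.00 in KO saline, and its log2 difference of -1.30 did not pass (adjusted p = 0.302). Set against the rest of the gene, NM_001127233 passed the test of transcript usage in KO saline (log2 2.58, adjusted p = 0.272), a test that called 4.31% of 11148 transcripts there and 4.66% for ethanol in WT, where no transcript of a member passed. The transcripts share all but 96 bases, and how the counting program split the common reads is not given in the sources used here. A share of 7.01% recurred in 4 libraries, with 14 to 78 Trp53 counts each, to within 0.05 percentage points. Such repeats were common. They were looked for in 2111 tested genes with a pair of listed transcripts, counted in every library and not given wholly to the same transcript throughout. Of these genes, 929 (44.0%) had the same share in 3 or more libraries. The Wrap53 gene lies head to head with Trp53 on the other strand, and although the kit keeps the strand, the counting's strand setting is not given in the sources used here.

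**Figure D1:**
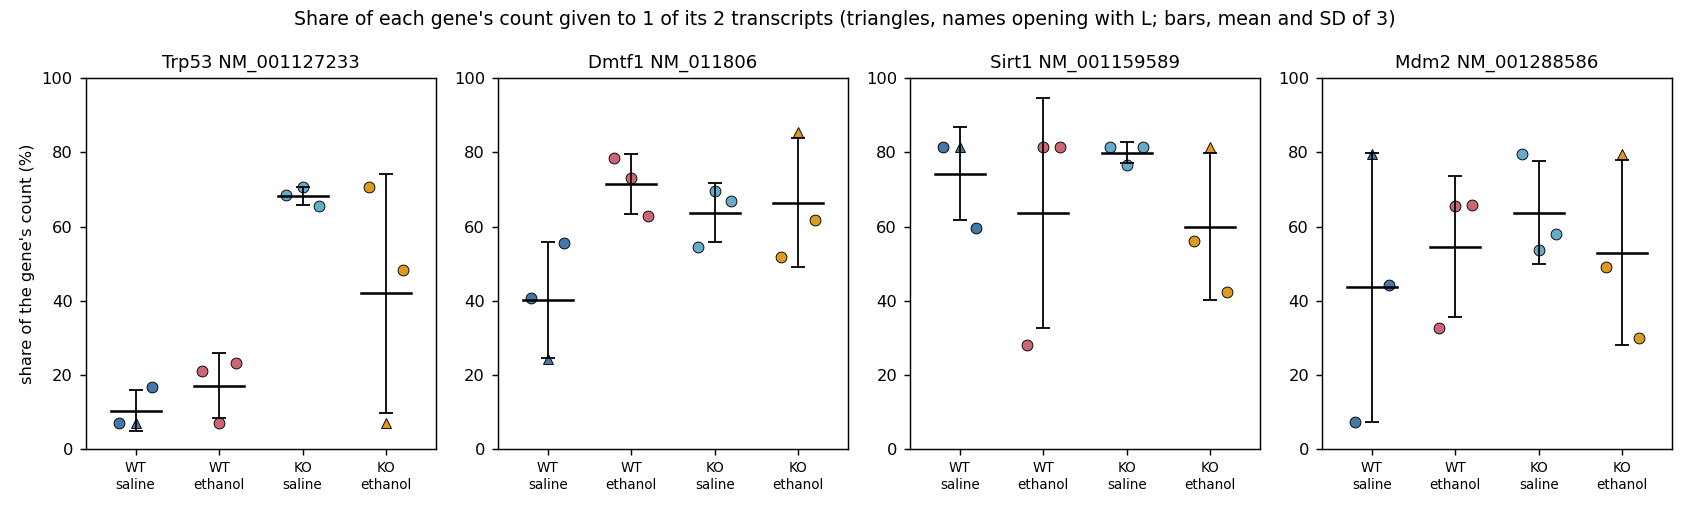
Share of each gene's counts, in percent, given to the transcript named above each panel, by group, with 1 point per library, triangles for the 2 libraries whose names open with L, and bars for the mean and SD of 3. The Trp53 transcript takes 48.3 to 70.6% in 5 of 6 KO libraries and 7.01 to 23.1% in WT, and the Sirt1 panel shows 7 libraries at the same share of 81.6%.

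Among the other 9 genes, of which Cdkn2a was not tested, 5 rose in WT mice after ethanol. The same 5 were higher in KO than in WT mice under saline: Dmtf1, Mdm2, Mdm4, Trp53bp1 and Hipk2. No member fell in either comparison. Of all symbols tested, the test called 22.5% for ethanol in WT (12.1% higher and 10.4% lower) and 25.8% for KO against WT in saline (12.4% higher and 13.4% lower). The libraries of the groups compared did not overlap for 3 of the 9 members with ethanol in WT and for 4 of 9 in KO saline, all of them higher, as for 11.2% and 12.9% of all symbols. The median log2 change of the 9 tested members was 0.93 and 0.65, beside 0.06 and 0.04 over all symbols tested. Both comparisons use the same WT saline libraries, so a shift in those 3 libraries moves both. The study had already listed Dmtf1 among its 3 most affected genes in both comparisons of these data. Its calls were thus known when the members were chosen, and its part in these counts and medians is not independent support. None of the members passed at an adjusted p under 0.05, where 11 (0.0746%) and 8 (0.0543%) symbols of 14739 did.

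**Figure D2:**
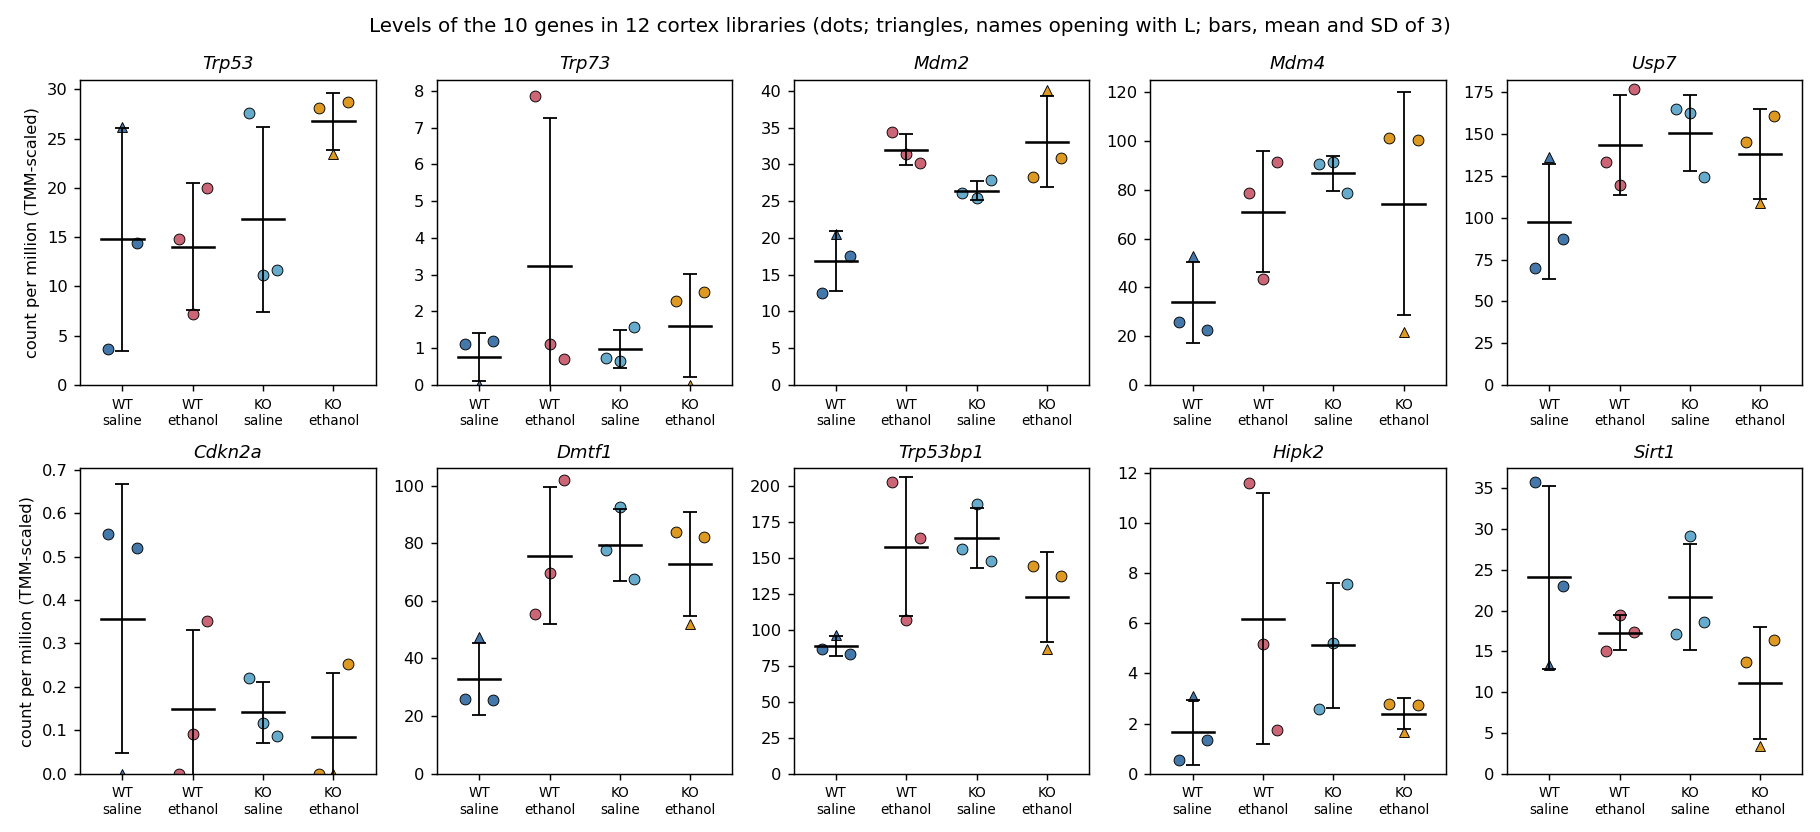
Level in CPM (TMM-scaled, linear axis from 0) of each of the 10 genes by group, with 1 point per library, triangles for the 2 libraries whose names open with L, and bars for the mean and SD of 3. For Mdm2, Dmtf1 and Trp53bp1 all 3 WT saline points lie below all points of WT ethanol and of KO saline.

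Dmtf1 stood at 25.9, 47.3 and 25.6 CPM in WT saline and at 55.4, 69.8 and 102 in WT ethanol. It stood at 77.8, 92.6 and 67.6 CPM in KO saline and at 83.9, 51.8 and 82.1 in KO ethanol. WT saline was the low group, with all 3 libraries below the other 9, and the remaining groups overlapped. The log2 change with ethanol in WT was 1.21 (SE 0.37, adjusted p = 0.189), and that of KO against WT in saline was 1.28 (SE 0.37, adjusted p = 0.176). In KO mice, ethanol gave a log2 difference of -0.11 (adjusted p = 0.999), and the difference between the ethanol responses of the genotypes was -1.32 (SE 0.52, adjusted p = 0.274), in a test that called 11.1% of symbols.

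Of the Dmtf1 transcripts, NM_011806, which has the exon shown above, passed the test. It stood at 10.8, 11.4 and 14.7 CPM in WT saline and between 42.3 and 64.3 in the other 9 libraries, with no overlap and with a spread in WT saline of 2.09 CPM (SD, n = 3). Its adjusted p over all transcripts was 0.059 for ethanol in WT and 0.056 for KO saline, in tests that called 21.5% and 23.8% of transcripts. NM_001110327, which lacks the exon, stood at 15.8, 35.7 and 11.8 CPM in WT saline and at 11.8, 18.6 and 38.1 in WT ethanol. In KO it stood at 35.2, 27.8 and 22.4 CPM with saline and at 40.4, 7.28 and 31.2 with ethanol. All 4 groups overlapped, and its log2 differences of 0.13 (adjusted p = 0.930) and 0.45 (adjusted p = 0.715) did not pass. NM_011806 took 40.1% ± 15.7 of the Dmtf1 counts in WT saline and 71.5% ± 8.03 in WT ethanol (SD, n = 3 each). In KO it took 63.7% ± 8.00 with saline and 66.4% ± 17.4 with ethanol. The test of transcript usage did not pass for NM_011806 (log2 0.89, adjusted p = 0.744 and log2 0.76, adjusted p = 0.879), so a different change of the transcripts was not shown. No Dmtf1 share recurred between libraries.

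**Figure D3:**
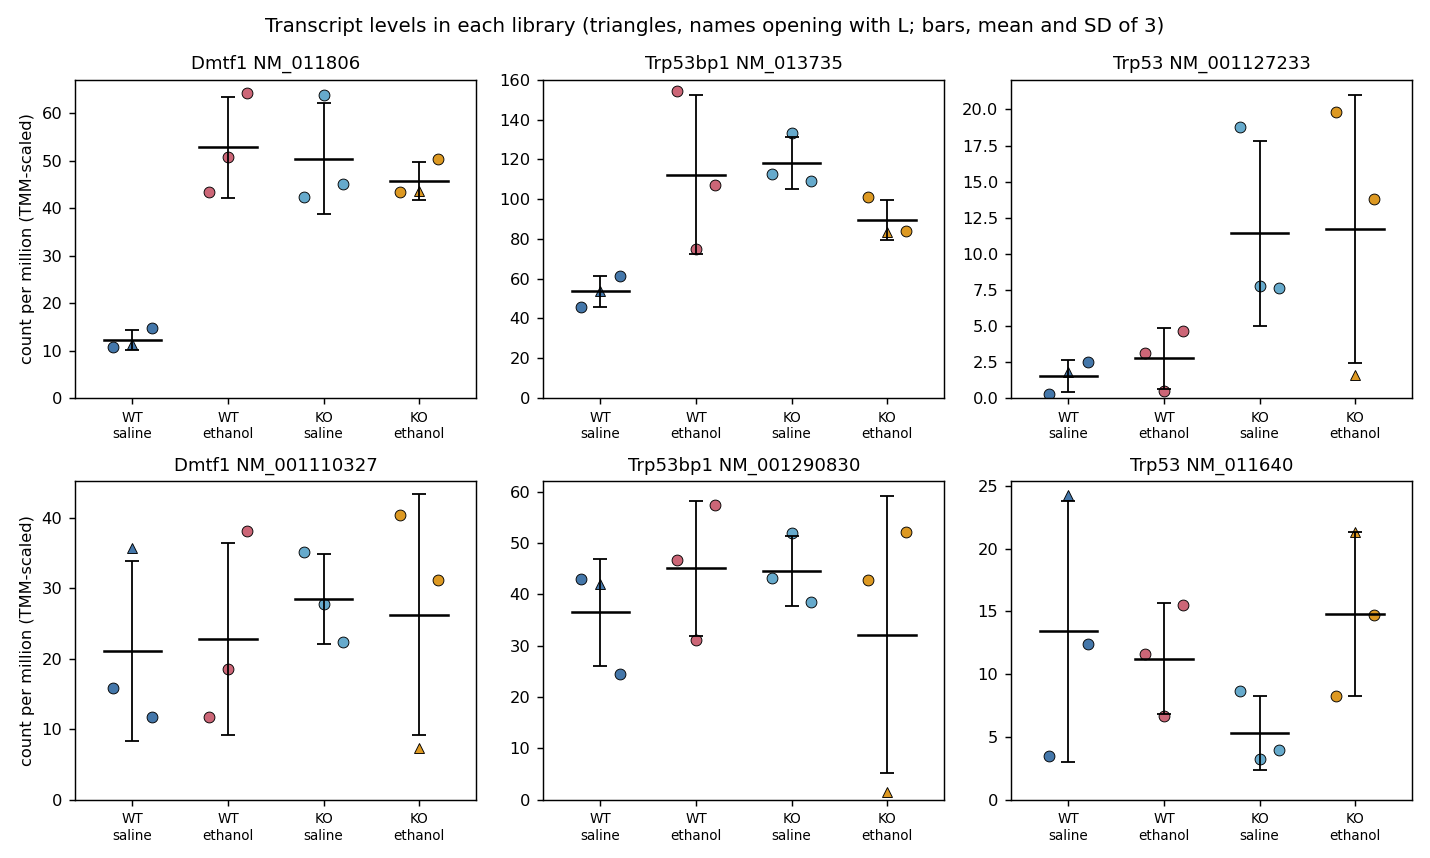
Level in CPM (linear axis from 0) of both transcripts of Dmtf1, Trp53bp1 and Trp53 by group, with 1 point per library, triangles for the 2 libraries whose names open with L, and bars for the mean and SD of 3. Dmtf1 NM_011806 lies at 10.8 to 14.7 CPM in WT saline and at 42.3 to 64.3 CPM elsewhere, while its partner overlaps in all groups.

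Cdkn2a, the gene that Dmtf1 is known to act on and the source of Arf and p16, was not detectable at a level that allows a test. It had 0 to 7 counts in a library, or 0 to 0.551 CPM, and its changes are not given.

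Mdm2, the ubiquitin ligase of p53, stood at 12.5, 20.6 and 17.6 CPM in WT saline and at 34.4, 31.4 and 30.2 in WT ethanol. It stood at 26.1, 25.4 and 27.8 CPM in KO saline and at 28.3, 40.1 and 30.9 in KO ethanol. The groups did not overlap in either ethanol comparison, nor between the saline groups, and WT saline was lowest. The log2 change was 0.93 (SE 0.32, adjusted p = 0.208) with ethanol in WT and 0.65 (SE 0.32, adjusted p = 0.273) for KO saline, and the latter was called in 7 of 23 other settings. In KO mice the ethanol difference was 0.30 and did not pass (adjusted p = 0.999), and 3.89% of all symbols likewise lay higher there without overlap. Neither of its transcripts passed on its own in these comparisons.

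Mdm4, the relative of Mdm2 that masks p53, stood at 25.9, 52.96 and 22.7 CPM in WT saline and at 78.5, 43.5 and 91.3 in WT ethanol. KO libraries stood at 90.6, 91.3 and 78.6 CPM with saline and at 101, 21.7 and 100 with ethanol. The low value of 21.7 belonged to replicate 12, and WT ethanol overlapped WT saline through replicate 5. The log2 change was 1.09 (SE 0.50, adjusted p = 0.267) with ethanol in WT and 1.38 (SE 0.51, adjusted p = 0.185) for KO saline, and these were called in 8 and 15 of 23 other settings. All 6 of its transcripts were called higher in KO saline, by log2 1.17 to 1.52, with overlap for NR_126506, and 2 of the 6 rose with ethanol in WT. Of all transcripts, 23.8% and 21.5% were called. The 2 that rose, NM_001302801 and NM_001302803, had counts in a nearly fixed ratio in all libraries but KO ethanol replicate 10. Their counts were 22.7 and 23.1 in WT saline replicate 1 and 90.4 and 92.2 in WT ethanol replicate 5, so these calls are not separate results.

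The deubiquitinase Usp7, which acts on Mdm2 and on p53, and the deacetylase Sirt1, which acts on p53, did not pass in any comparison. Usp7 stood at 70.0, 136 and 87.1 CPM in WT saline and at 134, 120 and 177 in WT ethanol. KO libraries stood at 165, 163 and 124 CPM with saline and at 145, 109 and 161 with ethanol, and all groups overlapped. Its log2 differences of 0.56 (adjusted p = 0.383) and 0.63 (adjusted p = 0.318) were in the direction of the called members. Sirt1 stood at 35.8, 13.4 and 23.0 CPM in WT saline and at 15.1, 19.5 and 17.4 in WT ethanol. KO libraries stood at 17.2, 29.1 and 18.6 CPM with saline and at 13.7, 3.34 and 16.4 with ethanol. Its KO ethanol libraries all lay below its KO saline libraries, at a log2 difference of -0.81 (adjusted p = 0.999), as was so for 6.87% of all symbols.

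Trp53bp1, an adaptor at DNA breaks that also binds p53, stood at 86.5, 96.1 and 82.9 CPM in WT saline and at 202, 107 and 164 in WT ethanol. It stood at 156, 187 and 148 CPM in KO saline and at 144, 86.9 and 137 in KO ethanol. WT saline lay below both WT ethanol and KO saline without overlap, and KO ethanol lay below KO saline. The log2 change was 0.83 (SE 0.34, adjusted p = 0.228) with ethanol in WT and 0.89 (SE 0.34, adjusted p = 0.193) for KO saline, and the ethanol responses of the genotypes differed by -1.24 (SE 0.47, adjusted p = 0.269). Its transcript with the exon shown above, NM_013735, had 46.0, 53.6 and 61.4 CPM in WT saline and 155, 74.9 and 107 in WT ethanol. It had 112, 133 and 109 CPM in KO mice given saline. It rose by 1.06 with ethanol in WT (adjusted p = 0.175) and was higher by 1.14 in KO saline (adjusted p = 0.149) on the log2 scale, whereas NM_001290830 passed in neither. Trp53bp1 is among the longest genes tested, at the 97.6th percentile of transcript length, and its log2 changes were -0.08 and -0.04 once a trend with length was taken out. Taking out that trend also moved the median of all symbols, to -0.19 and -0.18.

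Hipk2, a kinase that phosphorylates p53, was counted at 1 to 205 counts a library. It stood at 0.551, 3.09 and 1.34 CPM in WT saline and at 11.6, 5.19 and 1.76 in WT ethanol. KO libraries stood at 2.58, 5.21 and 7.54 CPM with saline and at 2.76, 1.67 and 2.73 with ethanol. Groups overlapped in both called comparisons, and the highest library was WT ethanol replicate 4. The log2 change was 2.10 (SE 0.76, adjusted p = 0.211) with ethanol in WT and 1.80 (SE 0.76, adjusted p = 0.222) for KO saline, with a difference between the genotypes' ethanol responses of -3.08 (SE 1.05, adjusted p = 0.252). Its 4 transcripts stood in one fixed ratio in all 3 WT saline libraries, with 51.2%, 20.1%, 20.8% and 7.85% of the counts, which left NM_010433 with 0.235 to 1.41 estimated counts there. Its log2 changes of 5.05 (adjusted p = 0.127) and 5.77 (adjusted p = 0.115) are against those values. NM_001294143 was also called for ethanol in WT (log2 3.18, adjusted p = 0.243). It had 132 estimated counts in WT ethanol replicate 4, and 6.37 and 2.01 in replicates 5 and 14.

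Trp73, the p53 relative with roles in neuron survival, had 0 to 139 counts a library, and stood at 1.10, 0 and 1.19 CPM in WT saline and at 7.87, 1.11 and 0.703 in WT ethanol. KO libraries stood at 0.738, 0.644 and 1.58 CPM with saline and at 2.29, 0 and 2.54 with ethanol. Only WT ethanol replicate 4, the library with the high choroid plexus and thalamus markers, stood clear of the rest. The log2 difference with ethanol in WT was 1.85 (adjusted p = 0.307), and -0.02 without that library. Its transcript NM_001126330 was called higher with ethanol in WT (log2 4.92, adjusted p = 0.209), with 85.9 estimated counts in that library and under 1 in each other WT library, and in KO saline (3.81, adjusted p = 0.292), with 9.09 to 12.8 counts. NM_001126331 was the single member transcript called lower in a comparison between groups, in KO saline (-2.66, adjusted p = 0.236), with 5.72, 0 and 15.2 estimated counts in WT saline and 0.405, 0.678 and 4.48 in KO saline.

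**Figure D4:**
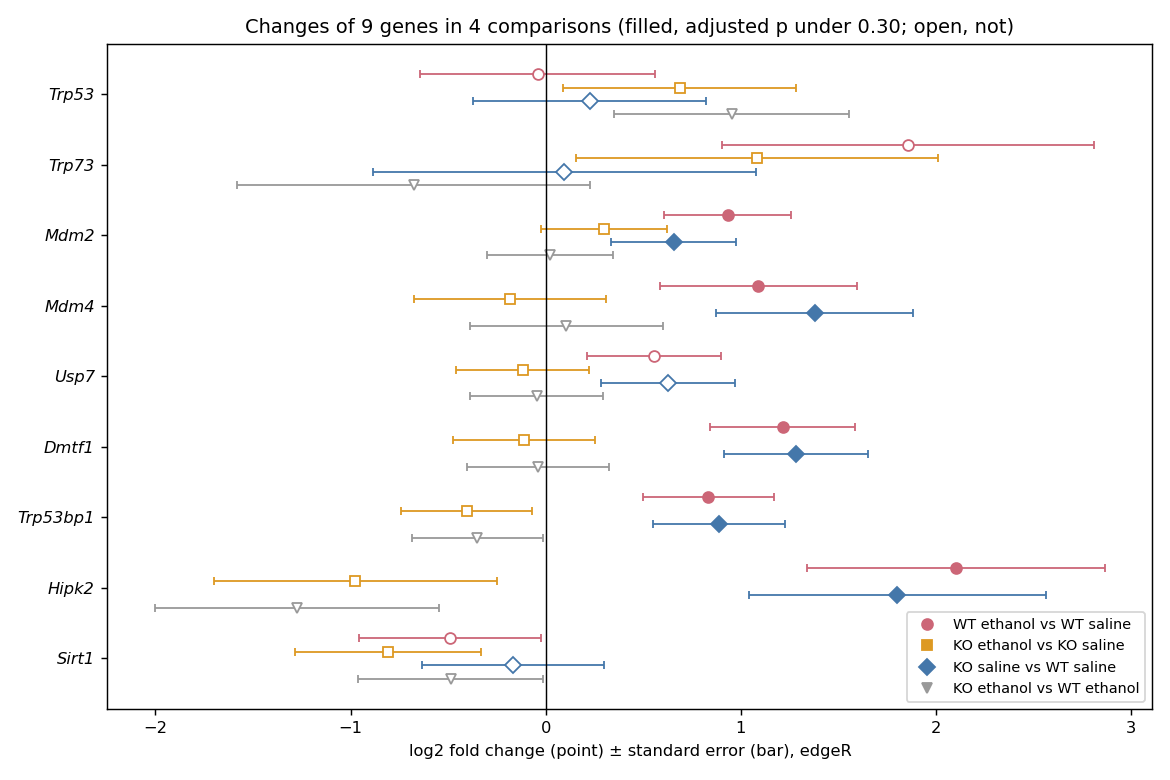
Log2 fold change (point) with its standard error (bar) of the 9 tested genes in 4 comparisons, filled where the adjusted p was under 0.30. Filled points are the 5 genes called for ethanol in WT and for KO against WT in saline, and no point is filled for ethanol in KO or for KO against WT in ethanol.

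In KO mice, ethanol called none of the 9 members, and no symbol passed in that comparison by edgeR, where 465 (3.15%) had an unadjusted p under 0.05, none of them a member, and DESeq2 called 3 (0.0204%). The largest member differences were -0.98 for Hipk2 and 1.08 for Trp73 on the log2 scale. KO against WT under ethanol also called none (0 of 14739 symbols, 477 at an unadjusted p under 0.05, 3.24%, DESeq2 3), with member differences of -1.27 for Hipk2 to 0.95 for Trp53. The ethanol response differed between the genotypes for 3 of 9 members, Dmtf1, Trp53bp1 and Hipk2, all in the negative direction, as it did for 5.43% of all symbols. For Mdm4 it was -1.27 (adjusted p = 0.406), and for the remaining 5 it did not pass either. The average effects of treatment and of genotype over both levels of the other factor called no member, where 1 symbol (0.00678%) and none of 14739 were called.

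Per length, levels were read from the deposited RPKM, summed over a gene's transcripts. The upper part of their distribution was the same in every library, with a 75th percentile over transcripts of 5.14 RPKM and a 90th of 18.8 in all 12, and 1 Hipk2 count in KO ethanol replicate 12 stood at 2.20 RPKM where 205 counts in WT ethanol replicate 4 stood at 1.78. Over the 12 libraries, Usp7 was the most abundant member at 22.4 RPKM ± 6.32 (SD, n = 12), followed by Dmtf1 at 15.95 ± 5.53, Trp53bp1 at 12.5 ± 3.34, Trp53 at 8.79 ± 4.14, Mdm4 at 8.15 ± 2.80, Mdm2 at 7.88 ± 2.11 and Sirt1 at 4.37 ± 2.08. Hipk2 at 0.932 ± 0.648, Trp73 at 0.266 ± 0.259 and Cdkn2a at 0.194 ± 0.245 RPKM were the lowest. The mean ± SD ranges of neighbours in this order overlapped except for Sirt1 and Hipk2, and the middle of the order moved with the group. In WT saline, Trp53bp1 (9.12 RPKM) stood above Dmtf1 (8.90), and Sirt1 (6.44) above Mdm2 (5.63) and Mdm4 (5.31). With ethanol in WT, Mdm2 (8.97 RPKM) and Mdm4 (7.94) stood above Trp53 (6.63), and with ethanol in KO, Trp53 (13.1) stood above Trp53bp1 (11.4). By Spearman correlation of log2 CPM over the 12 libraries, which share depth and make-up, the symbols most like Dmtf1 were Zfp939 (0.98), Golga1 (0.97), Hace1 (0.97), Ice2 (0.95) and Pcdh15 (0.95). Those most like Trp53 were Nprl3 (0.97), Atp13a1 (0.97), Tcirg1 (0.97), Supt5 (0.96) and Arhgef25 (0.95). Within the members, Dmtf1 was at 0.85 with Mdm4 and with Usp7, at 0.71 with Trp53bp1 and at 0.32 with Mdm2. Trp53 was at -0.77 with Sirt1. The likeness is a description only.

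Other genes of the p53 pathway were divided into 7 lists, and most of their members did not pass. The called share of a list ran from 8.33% to 40% for ethanol in WT and from 0 to 33.3% for KO saline. Over all symbols the test called 22.5% (12.1% higher and 10.4% lower) and 25.8% (12.4% higher and 13.4% lower). The count of each list is to be read against these shares. Of 12 kinases that act on p53 or Mdm2, 1 rose with ethanol in WT, Dyrk2 (log2 1.76), and 4 were higher in KO saline, among them Dyrk2 (2.06), Atr (1.48) and Atm (1.00), the DNA damage kinases. Of 10 acetyltransferases and methyltransferases, 3 rose and 1 fell with ethanol, and 3 were higher in KO saline. The coactivator Crebbp was the largest of them at log2 2.18 (adjusted p = 0.0967) and 2.02, followed by Setd7 at 1.03 and 1.20 and Ehmt1 at 0.79 and 1.13, and Smyd2 fell by 0.71 with ethanol. Of 12 other ubiquitin ligases and deubiquitinases, Cul4a was higher in both comparisons (0.88 and 1.00) and Stub1 was lower in KO saline (-0.90).

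Of 12 regulators of Arf and Cdkn2a, the polycomb protein Cbx7 rose with ethanol (log2 2.0003), the cyclin Ccnd2 was higher in both comparisons (1.29 and 1.44) and Ccnd3 fell by 0.84 with ethanol. Of 11 p53 family members and cofactors, 1 fell with ethanol (Trp53inp2, -0.66) and none differed in KO saline. Of 21 genes that p53 activates, 1 rose and 2 fell with ethanol in WT, and 2 were higher and 3 lower in KO saline. The stress sensor Sesn2 was higher in both (2.10 and 1.95), while the pro-apoptotic Bax (-1.09 and -1.12) and Ei24 (-1.22 and -1.13) were lower in both, and the membrane protein Perp was lower in KO saline (-1.43). The median log2 difference of these 21 genes was 0.15 and 0.06, beside 0.06 and 0.04 over all symbols, and their calls, 3 and 5 of 21, are to be read against the 22.5% and 25.8% of all symbols called. Of 11 neighbours of Trp53 on chromosome 11, Dnah2 rose (1.98) and Mpdu1 fell by 0.84 with ethanol, and Mpdu1 (-0.98), Sat2 (-0.98) and Wrap53 (-0.97) were lower in KO saline. None of the 7 lists had a called gene for ethanol in KO mice, where none of all 14739 symbols was called, so no list could.

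Members whose WT saline libraries did not overlap with WT ethanol or KO saline were Dmtf1, Mdm2 and Trp53bp1, which were picked by that alone. The 250 bases before the start of these 3 are shown, from RefSeq (GRCm38.p6). They were searched on both strands for the E-box CACGTG, the cyclic AMP element TGACGTCA, the Sp1 box GGGCGG, the CCAAT box, CCCGNATGT, which covers the site Dmtf1 is known to bind, and the p53 half-site. Of 32536 promoters of this length, 6.04%, 1.56%, 33.0%, 33.8%, 0.326% and 7.12% held these in turn. Capitals mark the matches.
Dmtf1, chr5:9161777-9162026, minus strand: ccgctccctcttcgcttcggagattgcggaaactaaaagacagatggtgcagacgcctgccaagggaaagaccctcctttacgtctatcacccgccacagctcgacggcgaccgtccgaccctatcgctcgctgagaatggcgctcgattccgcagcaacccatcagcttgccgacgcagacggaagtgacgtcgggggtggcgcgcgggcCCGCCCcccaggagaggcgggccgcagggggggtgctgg
Mdm2, chr10:117710759-117711008, minus strand: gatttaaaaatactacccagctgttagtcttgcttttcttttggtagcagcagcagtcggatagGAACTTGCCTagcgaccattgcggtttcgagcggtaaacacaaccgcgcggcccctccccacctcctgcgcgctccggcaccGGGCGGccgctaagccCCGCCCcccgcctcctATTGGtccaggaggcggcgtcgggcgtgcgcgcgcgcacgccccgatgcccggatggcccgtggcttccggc
Trp53bp1, chr2:121271408-121271657, minus strand: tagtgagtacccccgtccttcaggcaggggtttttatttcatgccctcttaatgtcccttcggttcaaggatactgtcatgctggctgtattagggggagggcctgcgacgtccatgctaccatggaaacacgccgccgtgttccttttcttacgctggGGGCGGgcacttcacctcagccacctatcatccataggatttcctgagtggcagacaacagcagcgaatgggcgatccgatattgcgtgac
All 3 held an Sp1 box, at 39 bases before the start in Dmtf1, at 104 and 88 in Mdm2 and at 91 in Trp53bp1. So did windows of the called Hipk2 and of Usp7, Sirt1, Trp73 and Cdkn2a, whose symbols were not called or not tested. Mdm4, which was called, and Trp53, which was not, held no Sp1 box. Mdm2 alone of the 3 held a CCAAT box (72) and a p53 half-site match (186). The letters CCCGNATGT were in none of the 3 windows.

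Calls of the symbol sums moved with length and with single libraries. Symbols called higher with ethanol in WT had a median transcript length of 4340 bases and those called lower 1349, against 2957 for all tested, and in KO saline the medians were 4634 and 1344. With the length trend removed, none of the 5 members was called in either comparison, where 2.99% and 0.801% of symbols were. Without WT saline replicate 1, whose scaling factor was 0.564, no member was called in either, where 195 and 37 of 15038 symbols were, down from 3310 and 3799 of 14739. Without WT ethanol replicate 4 none was called for ethanol in WT, where 71 of 14908 symbols were. Leaving out KO saline replicate 8 or 9 also gave no called member for KO saline, where 9 symbols were called each time. Without the L libraries 8 and 7 members were called, where 55.4% and 56.4% of all symbols were. Dmtf1 NM_011806 was called in 22 of 22 other settings in both comparisons, with log2 changes of 1.62 to 2.57 and 1.53 to 2.50.

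**Figure D5:**
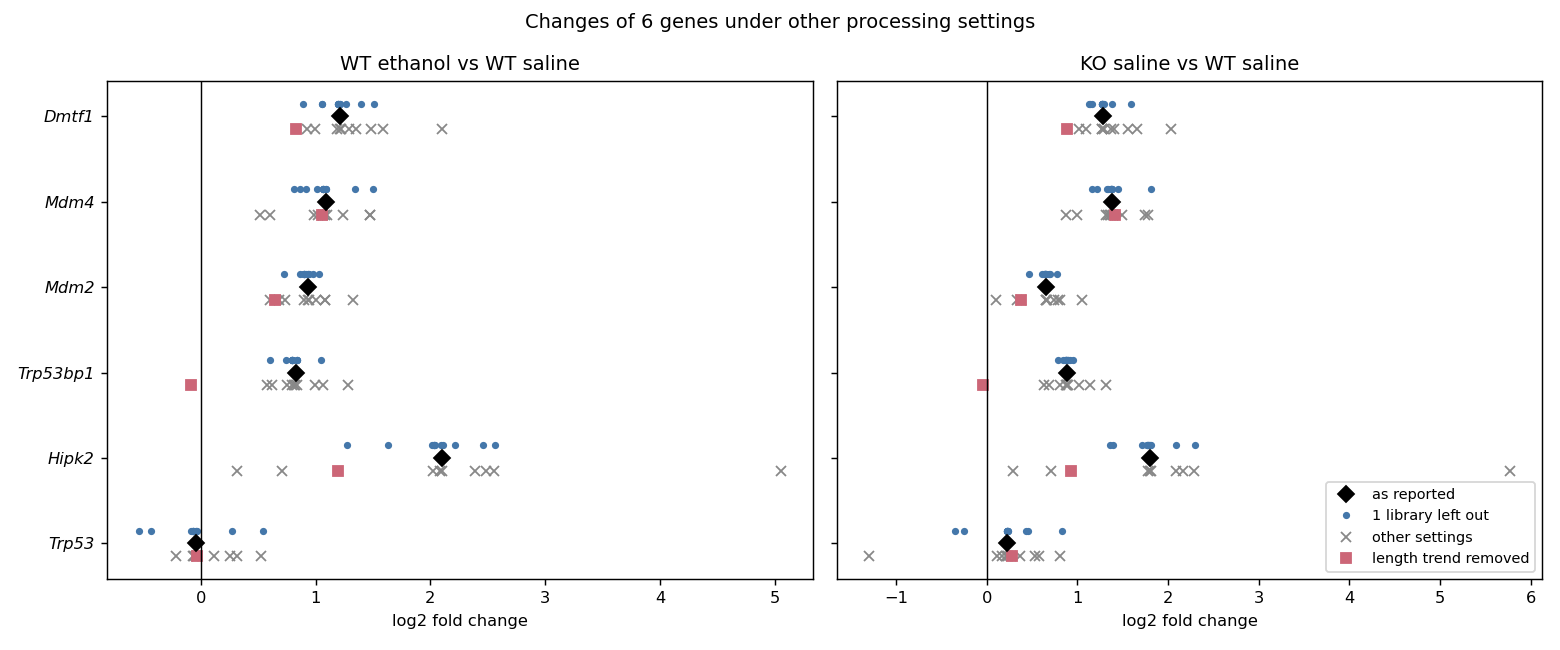
Log2 fold change of 6 genes for ethanol in WT (left) and for KO against WT in saline (right) as reported (diamonds), with 1 library left out (dots), with the length trend removed (squares) and under other settings (crosses). Dmtf1 is above 0 in every setting, Trp53bp1 reaches -0.08 and -0.04 with the length trend removed, and Trp53 lies on both sides of 0. With the length trend removed, the median of all symbols was -0.19 (left) and -0.18 (right).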

How the data were processed

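Whole somatosensory cortex of postnatal day 7 mice was sequenced by the authors with an Illumina stranded kit (1 x 75 bp reads). Reads were aligned with Bowtie2 to mm10, and RefSeq transcripts were counted in Partek Flow, whose counting and strand settings are not given in the sources used here. The deposited tables hold estimated counts, which need not be whole, and the deposited RPKM values, whose distribution is the same in every library at the 75th and the 90th percentile, although no such step is stated. Counts were rounded and summed per symbol. edgeR 4.0.16 (R 4.3.3) quasi-likelihood tests used TMM scaling, filterByExpr, 1 fit over 12 libraries and Benjamini-Hochberg adjustment over all symbols or transcripts, with calls at an adjusted p under 0.30. Transcript usage was tested with edgeR and shares with exact permutation. limma 3.58.1 (on log2 RPKM plus 1 or 0.1), DESeq2 1.42.0 and other filters, scalings and left-out libraries served as alternatives. Tests were checked on simulated data: of 200 symbols changed 8-fold, 96% were found for ethanol in WT, with 81 false calls among 14739, and for transcript usage 24% with 40 among 11148. Apart from the changes put in, these counts were drawn independently around the same level in every library. They held no length trend and no difference in make-up, so the check does not give the rate of false calls in these data. Named genes were all members and their transcripts, the 3 genes of smallest p in each list for both main comparisons, and the 5 symbols most like Trp53 and Dmtf1. Other list genes named were chosen after their values were seen. Members and lists were chosen with earlier results of these data known.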

Additional observations from a re-analysis of the deposited data

Results flagged for a closer look

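For 3 genes, the ethanol response in KO mice differed from that in WT mice by the edgeR interaction term at an adjusted p under 0.30. The log2 difference (KO minus WT) was -1.32 for Dmtf1, -1.24 for Trp53bp1 and -3.08 for Hipk2. These were called in 6 of 22, 9 of 22 and 9 of 21 other settings, and none was called with the length trend removed. Single outlying libraries were not looked for with groups of 3.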

How the results depend on the processing

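No paired analysis was possible because the 4 groups share no replicate number. Depth limits Cdkn2a, Trp73 and Hipk2 most, and KO ethanol replicate 12, with 719735 counts, limits every statement on KO ethanol. Of 1645 recomputed values of single genes, transcripts and shares, 1356 kept their direction and their side of the threshold, 167 kept the direction but lost the call, 53 gained it and 69 changed sign. The cause of a changed value was not tested except where the setting itself removes genes or libraries.

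Members called as symbols numbered 5 for ethanol in WT, 5 for KO against WT in saline and 3 for the interaction, and transcripts 7, 12 and 3. With limma on log2(RPKM + 1) the counts were 0, 1 and 0 symbols, and 2 and 3 transcripts in the first pair. With limma on log2(RPKM + 0.1) they were 0, 0 and 0 symbols and 1, 4 and 1 transcripts. With the length trend removed they were 0, 0 and 0 symbols and 3, 4 and 0 transcripts. Fitting only the groups compared gave 0 symbols and 1 transcript for ethanol in WT and 7 transcripts for KO saline. A minimum of 10 counts in every library left 3 and 3 transcripts, but it also took most member transcripts out of the test. Those that met it were Trp53 NM_011640, Dmtf1 NM_011806, Trp53bp1 NM_013735 and the Usp7 transcript, with lowest counts of 13.0, 22.2, 51.1 and 65. A minimum of 1 count in any library left 1 symbol for the interaction. With the first letter of the library name as a covariate, the interaction called 0 symbols and 0 transcripts. Without the L libraries, 8 symbols and 15 transcripts were called for ethanol in WT, 7 symbols and 12 transcripts for the treatment effect, 6 and 13 for the genotype effect and 6 and 7 for the interaction. DESeq2 called 1 symbol and 1 transcript for treatment, 4 transcripts for genotype and 5 for the interaction. Scaling by library size alone called 11 transcripts for ethanol in WT. It moved the median log2 change of all symbols to 0.49 in both main comparisons and raised the share of calls that were higher from 53.7% to 87.6% for ethanol in WT and from 48.0% to 83.2% for KO saline. Over all symbols, these settings moved the counts of calls in the main comparisons by more than 1.5 times: 3310 and 3799 calls became 441 and 118 with the length trend removed, 440 and 485 with limma on log2(RPKM + 1), 191 and 86 on log2(RPKM + 0.1) and 8295 and 8435 without the L libraries. For ethanol in WT alone, fitting only the groups compared left 39 calls (2531 for KO saline) and 10 counts in every library left 2092. That last filter tested 7624 symbols in place of 14739, so the called share did not fall. With 1 library left out, the calls ran from 71 to 7304 for ethanol in WT and from 9 to 7556 for KO saline, lowest without WT ethanol replicate 4 and without KO saline replicate 8 or 9, and highest without WT saline replicate 3.

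With 1 library left out in turn, 0 to 7 members were called for ethanol in WT, 0 to 6 for KO saline, 0 to 5 for the interaction, 0 to 5 for treatment and 0 to 5 for genotype. Transcripts called were 1 to 14, 1 to 14, 0 to 8, 0 to 4 and 0 to 9 in the same order. The counts of 7, 6 and 5 symbols came without WT saline replicate 3, and so did the 5 for treatment and for genotype. For the interaction no member was called without any 1 of WT saline 1 or 13, WT ethanol 4 or 14, KO saline 8 or 9, or KO ethanol 10 or 12. The share difference at Trp53 ran from 38.4 to 51.1 percentage points.

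Sign changes on the log2 scale were mostly among differences that had not passed. Removing the length trend also moved the median of all symbols, to -0.19 for ethanol in WT and -0.18 for KO saline. It moved to 0.15 for ethanol in KO, 0.14 for KO against WT in ethanol and 0.29 for the interaction. A sign under that setting is therefore read against a moved baseline. For ethanol in WT, Trp53 was 0.25 with library size alone, 0.12 with 10 counts in every library, 0.53 without the L libraries and 0.31 with the letter as covariate (-0.53 to 0.54 with 1 library left out), Sirt1 was 0.0685 with library size alone, and Trp73 ran from -0.0181 to 2.26 with 1 library left out. For KO saline, Trp53 was -1.30 by its highest-count transcript (-0.36 to 0.83 with 1 library left out). Trp73 was -0.0458 with limma on log2(RPKM + 1), -0.30 without the L libraries, -0.24 with the letter as covariate and -0.53 with the length trend removed (-0.41 to 0.46 with 1 library left out), and Sirt1 was 0.39 with library size alone (-0.47 to 0.21 with 1 library left out). For ethanol in KO, Trp73 was -0.0448 with limma on log2(RPKM + 0.1). Without the L libraries Mdm4 was 0.19, Usp7 0.0021 and Dmtf1 0.0457, and with the length trend removed Usp7 was 0.19, Dmtf1 0.15 and Trp53bp1 0.13 (1 library left out: Mdm4 -0.43 to 0.21, Usp7 -0.23 to 0.0199, Dmtf1 -0.20 to 0.0638). For KO against WT in ethanol, Mdm2 was -0.0002 with 10 counts in every library, -0.12 without the L libraries and -0.12 with the letter as covariate. Usp7 was 0.0099 with DESeq2, 0.0837 without the L libraries and 0.26 with the length trend removed. Dmtf1 was 0.0162 with DESeq2, 0.0033 with library size alone, 0.0141 and 0.0161 with limma at the larger and smaller added value, 0.12 without the L libraries and 0.19 with the length trend removed, and Trp53bp1 was 0.17 with the length trend removed. With 1 library left out, Trp73 ran from -1.08 to 1.19, Mdm2 from -0.11 to 0.18, Mdm4 from -0.15 to 0.50, Usp7 from -0.16 to 0.19 and Dmtf1 from -0.21 to 0.29.

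For the genotype effect, Trp53 was -0.49 and Trp73 1.42 by the highest-count transcript, Trp73 was 0.0106 with library size alone (-0.51 to 0.62 with 1 library left out), and Hipk2 was -0.0065 with the length trend removed. For the interaction with the length trend removed, Trp73 was 0.13, Usp7 0.0556, Trp53bp1 0.21, Trp53bp1 NM_013735 0.23 and Sirt1 0.24, and Sirt1 was 0.30 without the L libraries and 0.24 with the letter as covariate. With 1 library left out, Trp73 ran from -1.18 to 1.14, Sirt1 from -0.68 to 0.044 and Trp53 NM_001127233 from -1.40 to 0.0245. Of called values, only those of Trp53bp1 changed sign: with the length trend removed the symbol was -0.0823 for ethanol in WT and -0.0418 for KO saline. Both stayed above the median of all symbols in that setting, -0.19 and -0.18.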
